A study of Mus musculus with 6 samples.

Results

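The genes described here build and maintain the primary cilium, and encode its transport machinery and the gate at its base. They were chosen by gene symbol, by a pattern that takes intraflagellar transport (Ift), Bardet-Biedl (Bbs), tectonic (Tctn), B9 domain and dynein-2 genes, 4 Wdr genes, Cep290, Mks1, Rpgrip1l, Arl13b, Evc and Evc2. A gene also needed at least 10 counts summed over the 6 libraries. The pattern found 40 of the 41228 entries of the count table, all 40 reached that minimum, and 39 had enough counts to be tested. The exception, Ift88os, is an antisense transcript at Ift88 that the pattern took along with its host gene. Beyond that minimum, the symbols chose the genes and not their levels. The pattern was itself chosen with earlier results of these data known.

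RNA from the whole cerebellum was compared between 3 mice with a conditional knockout of SnoN (SnoN cKO) and 3 wild type mice, all of strain C57BL/6 and 6 days old. Each mouse gave 1 library of total RNA, and each genotype has 1 animal labelled female and 2 labelled male. Skil encodes SnoN, which regulates transcription together with Smad proteins. Neither the Cre line, nor the exons removed, nor the cells that lost SnoN are stated in the labels. Each SnoN cKO library may therefore pool reads from cells with and without the deletion. The sources do not say whether the mice were littermates, and p-values measure the spread between these 6 animals. In bulk tissue, fewer cells of a type and less RNA per cell cannot be told apart.

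The primary cilium is a single antenna-like projection of the cell surface that is built on a centriole. Trains of intraflagellar transport (IFT) proteins carry cargo along its microtubules: the IFT-B complex moves outwards with kinesin-2 motors, and the IFT-A complex takes part in the return journey, which the dynein-2 motor drives. The BBSome, a coat complex named after Bardet-Biedl syndrome, rides on these trains and takes membrane receptors out of the cilium, and the transition zone at the base controls what enters and leaves. In the cerebellum the dividing precursors of granule neurons carry a primary cilium, through which they receive the Sonic hedgehog signal that keeps them dividing. Ependymal cells lining the ventricle use many of the same genes for their tufts of motile cilia.

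The libraries differed in ways other than genotype. Totals ranged from 12605870 to 17757711 counts, and the 40 genes took 0.121% to 0.127% of them. Skil, the targeted gene, had 76.0, 74.7 and 77.5 CPM (a gene's counts relative to the scaled library total) in SnoN cKO libraries 1, 2 and 3, and 89.5, 87.5 and 88.9 CPM in wild type libraries 1, 2 and 3. All SnoN cKO libraries lay below all wild type libraries, with a log2 fold change of -0.22 (SE 0.04, unadjusted p = 0.000379, adjusted p = 0.637 by edgeR's quasi-likelihood test). The sex labels of 2 SnoN cKO libraries went against their X- and Y-linked genes: SnoN cKO 1, labelled female, had 1146 counts of the Y-linked Ddx3y and 35 of Xist, and SnoN cKO 2, labelled male, had 0 and 37467. Both carry the same genotype label, and results without them are given below. SnoN cKO 2 also stood apart by its near lack of choroid plexus RNA, with 17.3 CPM of the choroid plexus gene Ttr against 1641 to 3209 CPM in the other 5 libraries. Cerebellar granule precursor markers such as Barhl1 were present in every library, at 213 to 255 CPM in SnoN cKO and 192 to 227 CPM in wild type.

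Many cilium genes are switched on by RFX transcription factors, which bind a paired motif called the X-box just ahead of the gene. RefSeq promoter sequence of build GRCm38.p6, reaching from 250 bases before to 50 bases after the start, was at hand for 35 of the 40 genes. An X-box was searched on both strands. In the paired form the left arm was spelled GTTNCC, where N is any base, and the right arm of the motif, 1 to 3 bases further on, was spelled GGNAAC. The half-site was searched as GTTGCCA, which can lie inside the paired form. The paired form occurred in 5 of 35 promoters (14.3%), against 244 of 27025 genes of the table with a promoter (0.903%). The half-site occurred in 9 of 35 (25.7%) against 1358 of 27025 (5.03%), and either form in 12 of 35 (34.3%) against 1485 of 27025 (5.50%). These shares are a description of the letters in the window and do not show binding. The median GC content was 59% in these promoters and 52.7% in all promoters, and its part in the shares was not tested.

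The 5 paired sites are shown because they match the full paired motif, which the other promoters searched did not hold. Each is read 5′ to 3′ on the strand of the gene, with the X-box in capitals. They lie at chr3:36613475-36613532 (minus strand) for Bbs7, chr16:49699212-49699268 (plus) for Ift57, chr11:87853169-87853214 (plus) for Mks1, chr19:40612337-40612393 (minus) for Tctn3 and chr5:122264411-122264432 (minus) for Tctn1.
Bbs7: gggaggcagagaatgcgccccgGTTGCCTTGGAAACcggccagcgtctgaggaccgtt
Ift57: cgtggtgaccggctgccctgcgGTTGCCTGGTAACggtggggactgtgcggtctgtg
Mks1: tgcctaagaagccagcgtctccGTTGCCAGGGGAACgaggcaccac
Tctn3: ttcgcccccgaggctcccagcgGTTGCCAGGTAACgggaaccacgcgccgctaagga
Tctn1: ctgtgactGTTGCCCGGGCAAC
The first capital lies 121, 60, 24 and 140 bases before the start in Bbs7, Ift57, Mks1 and Tctn3, and at base 37 after it in Tctn1. All 5 begin with the same letters, GTTGCC, although the search left the fourth letter free.

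A half-site without its partner was found in 7 further genes: B9d1, Bbs1, Dync2h1, Ift27, Ift88, Tctn2 and Wdr35. Examples from the outward train, the return motor and a further train subunit are shown with the half-site in capitals, at chr14:57424083-57424105 (plus) for Ift88, chr9:7177009-7177031 (minus) for Dync2h1 and chr15:78174082-78174112 (minus) for Ift27.
Ift88: gtcgcgccTGGCAACggctgggc
Dync2h1: acggagctTGGCAACtgctgagt
Ift27: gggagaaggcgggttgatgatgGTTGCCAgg
The half-site reads in opposite directions in these examples: Ift88 and Dync2h1 hold it on the other strand, just after the start, and Ift27 holds it forward, 9 bases before the start. Of the 12 genes with either form, only Ift88 was among the 6 whose genotypes did not overlap, as described next. Of those 6, Ift81 had no promoter in the RefSeq table.

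The cilium genes as a group hardly differed between SnoN cKO and wild type cerebellum. Their summed level was 1216 to 1261 CPM in SnoN cKO and 1222 to 1251 CPM in wild type libraries, so the genotypes overlapped. Of the 39 tested genes, 20 had a positive and 19 a negative log2 fold change (51.3% positive, against 49.0% of all 15457 genes tested), and the median was 0.00 in the cilium genes and in all genes. No gene passed an adjusted p of 0.05 in edgeR's quasi-likelihood test, where 0% of all genes passed, and the adjusted p of the cilium genes ran from 0.637 to 0.998. At an unadjusted p under 0.05 there were 3 of 39 (7.69%) against 7.68% of all genes. All 3 were higher in SnoN cKO, where the share of all genes called higher was 3.21%, and none was lower, where it was 4.47%.

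The estimates were narrow for a comparison of this size. Log2 fold changes ran from -0.15 in Tctn1 to 0.20 in B9d2, and the 95% intervals of all 39 genes lay between -0.51 and 0.40. The median SE was 0.07 in the cilium genes and 0.08 in all genes. The highest library exceeded the lowest by a median of 1.18-fold, against 1.21-fold in all genes. Dync2h1 was steadiest at 1.03-fold, and Bbs10, the lowest of the 39 in CPM, varied most at 1.42-fold.

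**Figure D1:**
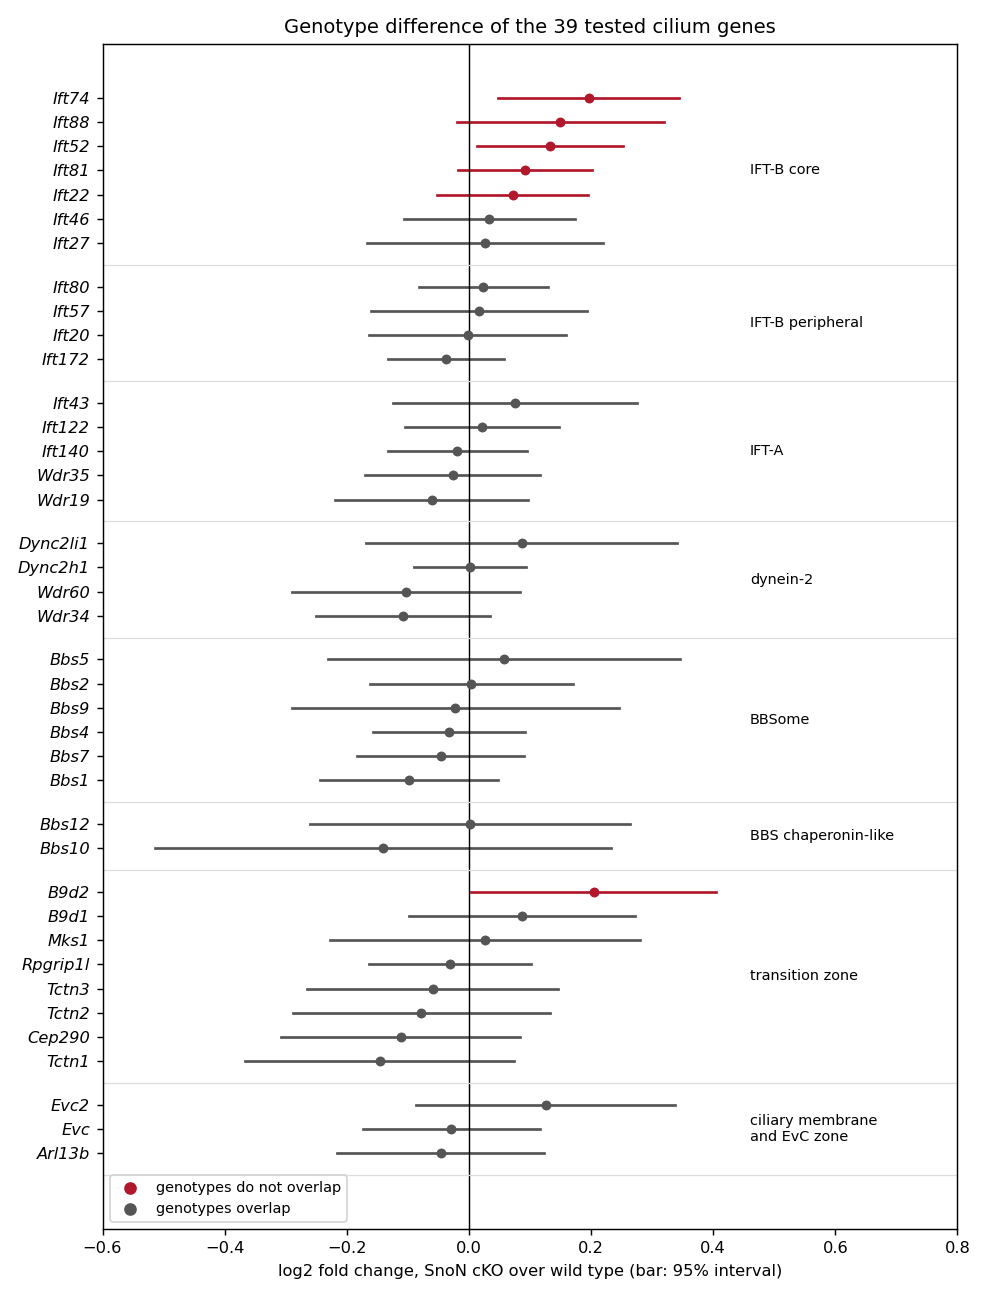
Log2 fold changes of the 39 tested cilium genes, SnoN cKO over wild type, ordered by role (horizontal axis, log2 scale); points are edgeR estimates and bars 95% intervals. The points lie between -0.15 and 0.20, and the 6 red genes, those whose genotypes did not overlap, are all to the right of 0.

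In 6 of 39 genes (15.4%) every SnoN cKO library was above every wild type library, against 6.95% of all genes tested. The reverse order occurred in 0 of 39, against 6.73% of all genes. The 6 genes were Ift74, Ift52, Ift88, Ift81 and Ift22, all of the IFT-B core, and B9d2 of the transition zone. With DESeq2 size factors the same 6 were separated. With library totals alone, Ift22 and Ift88 overlapped and Bbs4 was separated with SnoN cKO lower, which left 4 genes higher and 1 lower. Their fold changes were small, and none passed the adjusted threshold.

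The IFT-B core is the stable heart of the outward train. The 7 core genes that carry an Ift symbol all had positive log2 fold changes, from 0.03 to 0.20 with a median of 0.09. Core subunits under other symbols, outside the pattern, overlapped between genotypes and were mostly negative: Ttc26 at -0.08 (SE 0.10), Ttc30a1 at -0.06 (SE 0.13), Hspb11 at -0.04 (SE 0.15) and Ttc30b at 0.14 (SE 0.11). Ttc30a1 and Ttc30b are near-identical copies that can share reads, so their values are uncertain. These 4 genes were named after their values had been seen. The summed level of the 7 Ift genes was 265, 264 and 269 CPM in SnoN cKO 1, 2 and 3 and 247, 252 and 249 CPM in wild type 1, 2 and 3, without overlap. Summed markers of astrocytes and Bergmann glia (4607 to 4842 CPM in SnoN cKO and 4458 to 4483 CPM in wild type) and of endothelium and pericytes (744 to 756 CPM in SnoN cKO and 709 to 740 CPM in wild type) were separated in the same direction. In a sum the abundant genes weigh most. By mean log2 CPM relative to the 6 libraries, both lists overlapped. Astrocyte and Bergmann glia markers were at -0.015 to 0.013 in SnoN cKO and -0.011 to 0.007 in wild type. Endothelium and pericyte markers were at 0.007 to 0.011 and -0.041 to 0.024. The part of these cells in the IFT-B core levels was not tested. The division of IFT-B into core and peripheral subunits is a textbook one, but it was applied here after the values had been seen, and no test is given for it. All 7 stayed positive with DESeq2 size factors and with library totals, and 6 of 7 were positive without SnoN cKO 2 or without wild type 1.

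Ift74 and Ift81 pair as a coiled coil that binds tubulin, the main building block carried into the cilium. Ift74 had 34.5, 33.6 and 38.1 CPM in SnoN cKO 1, 2 and 3, against 31.1, 32.3 and 29.3 CPM in wild type 1, 2 and 3. SnoN cKO 3 was the highest library and wild type 3 the lowest, and the genotypes did not overlap. The log2 fold change of Ift74 was 0.20 (SE 0.07, unadjusted p = 0.0145, edgeR adjusted p = 0.637). Ift81 had 50.1, 49.7 and 52.1 CPM in SnoN cKO, against 47.8, 46.5 and 48.3 CPM in wild type. The pair thus had the same order of genotypes, with SnoN cKO 3 highest in each, and the log2 fold change of Ift81 was 0.09 (SE 0.05, unadjusted p = 0.0936).

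Ift52 and Ift88 link the core to the peripheral subunits, and loss of Ift88 is the usual way to remove cilia in mouse experiments. Ift52 had 34.5, 35.9 and 36.1 CPM in SnoN cKO and 31.5, 32.2 and 33.6 CPM in wild type. The ranges were narrow and separate, with an edgeR log2 fold change of 0.13 (SE 0.05, unadjusted p = 0.0328, edgeR adjusted p = 0.637). Ift88 had 27.9, 26.9 and 27.0 CPM in SnoN cKO and 26.0, 25.5 and 22.1 CPM in wild type. Here wild type 3 lay well below the other 5 libraries, and the log2 fold change of 0.15 (SE 0.08, unadjusted p = 0.078) was 0.08 without that library. Ift88os, on the opposite strand, had 8, 5 and 11 counts in SnoN cKO and 9, 19 and 6 counts in wild type. These counts were too few to test, and since the kit does not record strand, reads of Ift88 and Ift88os cannot be told apart in the 1.45% of Ift88 exon bases that they share.

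Ift22 is a small GTPase-like subunit of the train, with 32.0, 32.1 and 34.1 CPM in SnoN cKO and 31.9, 30.8 and 30.9 CPM in wild type. Its genotypes were barely separated, since SnoN cKO 1 and wild type 1 almost met, and the log2 fold change was 0.07 (SE 0.06). The remaining core subunits overlapped. Ift27, a second small GTPase that helps the BBSome leave the cilium, had 35.2, 41.1 and 31.6 CPM in SnoN cKO and 34.1, 35.7 and 35.9 CPM in wild type. Both its highest and its lowest library were SnoN cKO ones. For Ift46, which carries outer dynein arms in the alga Chlamydomonas, the log2 difference was 0.03 (SE 0.06).

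**Figure D2:**
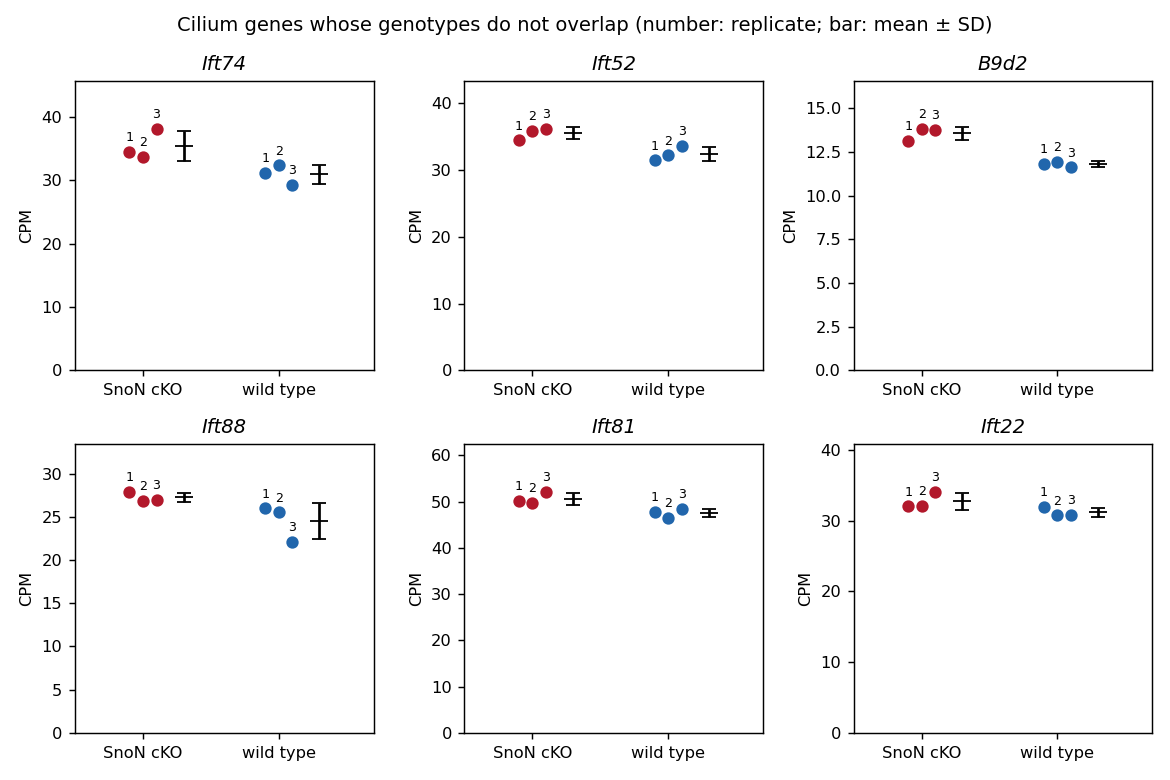
Level in CPM (vertical axis, from 0) of the 6 cilium genes whose genotypes did not overlap; points are libraries, numbered by replicate, and bars the mean ± SD of 3 libraries per genotype. The separation is small beside the level, for example 34.5 to 36.1 CPM in SnoN cKO and 31.5 to 33.6 CPM in wild type for Ift52.

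The peripheral IFT-B subunits, which bind the core more loosely and link it to the motor and to cargo, overlapped between genotypes in each of the 4 genes of the pattern. Their median log2 fold change was 0.01, with 2 of 4 positive, and the difference from the core was not tested. Ift172, a long subunit that acts at the ciliary tip in Chlamydomonas, had 83.8, 85.1 and 81.4 CPM in SnoN cKO and 84.2, 86.7 and 86.0 CPM in wild type, a log2 fold change of -0.04 (SE 0.04). The ranges overlapped, and the 95% interval of -0.13 to 0.06 bounds the difference closely. On the log2 scale Ift20, which also serves at the Golgi, differed by 0.00 (SE 0.07), Ift57 by 0.02 (SE 0.08) and Ift80 by 0.02 (SE 0.05).

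In the IFT-A complex, which helps return trains and brings receptors into the cilium, 2 of 5 genes were positive and the median log2 fold change was -0.02. Ift140, a core subunit, had 66.3, 61.6 and 63.3 CPM in SnoN cKO and 66.0, 61.6 and 66.1 CPM in wild type. The genotypes covered nearly the same range. Wdr19 had 26.2, 25.6 and 27.1 CPM in SnoN cKO and 29.0, 25.4 and 28.1 CPM in wild type, a log2 fold change of -0.06 (SE 0.07). Its lowest and highest library were both wild type. The log2 differences of Ift122, Ift43 and Wdr35 were 0.02 (SE 0.06), 0.08 (SE 0.09) and -0.03 (SE 0.06).

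The dynein-2 motor had 2 of 4 genes positive and a median log2 fold change of -0.05. Dync2h1, its heavy chain, had 92.7, 94.1 and 91.4 CPM in SnoN cKO and 93.0, 91.9 and 92.8 CPM in wild type. The 6 libraries lay close together, the log2 fold change was 0.00 (SE 0.04), and its 95% interval ran from -0.09 to 0.09. Its sign turned to -0.02 with library totals alone. The log2 difference was 0.09 (SE 0.11) for the light intermediate chain Dync2li1, and -0.11 (SE 0.06) and -0.10 (SE 0.08) for the intermediate chains Wdr34 and Wdr60. Each of these 3 genes was lowest in SnoN cKO 2.

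The BBSome had 2 of 6 genes positive and a median log2 fold change of -0.03. Bbs1, which docks the coat onto the small GTPase Arl6 at the membrane, had 35.4, 33.2 and 38.8 CPM in SnoN cKO and 39.9, 38.1 and 37.1 CPM in wild type. SnoN cKO 1 and 2 lay below wild type and SnoN cKO 3 within it, with a log2 fold change of -0.10 (SE 0.07, unadjusted p = 0.166). Bbs4, the last subunit to join the coat, had 31.2, 31.7 and 33.1 CPM in SnoN cKO and 31.8, 32.5 and 33.9 CPM in wild type. The genotypes of Bbs4 overlapped over most of their range, and the log2 fold change was -0.03 (SE 0.06). The log2 differences of Bbs2, Bbs5, Bbs7 and Bbs9 were 0.00, 0.06, -0.05 and -0.02. The chaperonin-like proteins Bbs10 and Bbs12, which help assemble the BBSome, had -0.14 (SE 0.17) and 0.00 (SE 0.12). The SE of Bbs10 was the largest of the 39 genes.

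The BBSome and dynein-2 genes had their lowest mean level in 1 library, SnoN cKO 2. Of these 10 genes, joined here after their values had been seen, 7 had their lowest level in SnoN cKO 2. Their mean log2 CPM, relative to the mean of the 6 libraries, was -0.11 for the BBSome and -0.13 for dynein-2 in that library, and between -0.04 and 0.06 in the other 5. The other roles had their lowest mean elsewhere, for example IFT-A in wild type 2 (-0.05) and the transition zone in wild type 3 (-0.06). Over all 39 genes, 13 were lowest in SnoN cKO 2 and 3 to 7 in each of the other 5 libraries. The share of all tested genes that were lowest in SnoN cKO 2 was not counted, so these counts cannot be read as a trait of the cilium genes. The same library was lowest for 32 markers of multiciliated ependyma, at -0.35, against 0.07 and 0.07 in SnoN cKO 1 and 3 and 0.38, -0.01 and -0.17 in wild type 1, 2 and 3. The choroid plexus markers stood at -3.15 and the brainstem and spinal cord markers at -1.61 in SnoN cKO 2, each the lowest of the 6. Granule precursor markers were highest there, at 0.18. The part of these tissues in the levels of the BBSome and dynein-2 genes was not tested.

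**Figure D3:**
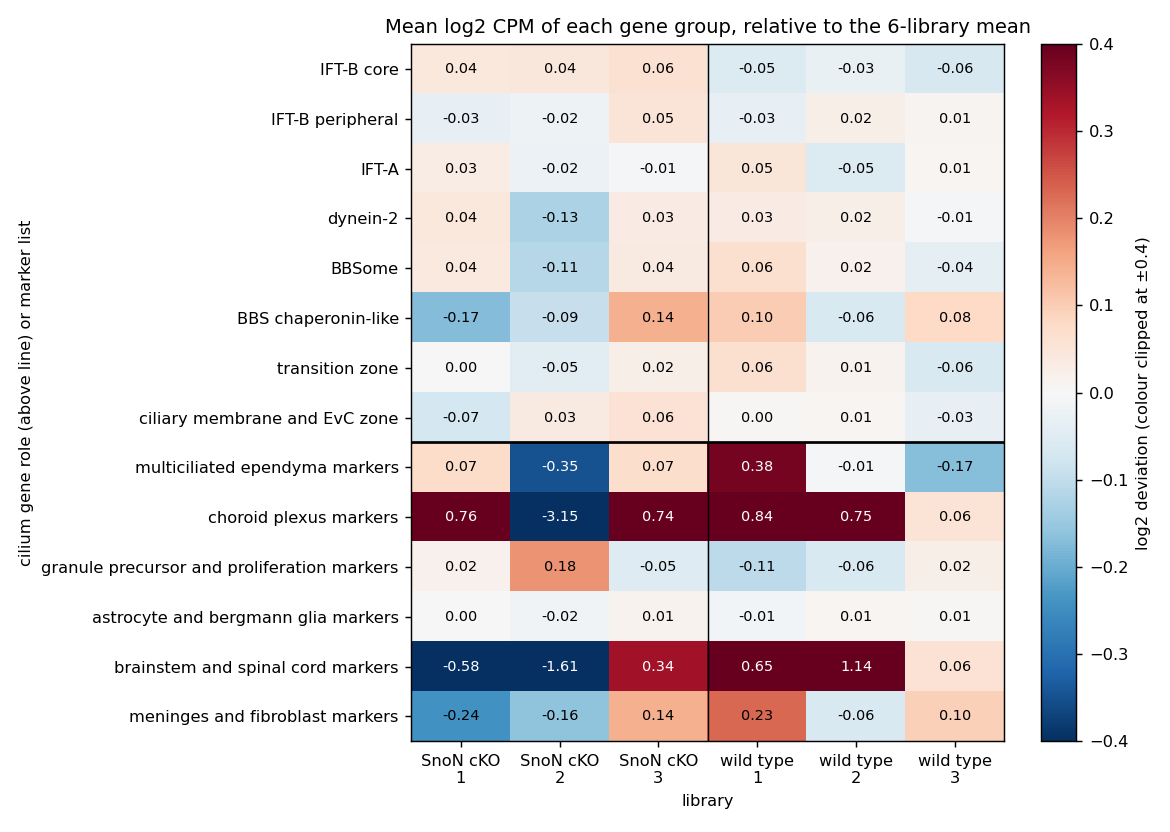
Mean log2 CPM of each group of cilium genes and of marker lists in each library, relative to the mean of the 6 libraries (colour, limited at ±0.4; values printed in the cells). In the IFT-B core row all SnoN cKO libraries are positive and all wild type libraries negative, and in the BBSome and dynein-2 rows SnoN cKO 2 stands alone at -0.11 and -0.13.

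Transition zone genes had 3 of 8 positive and a median log2 fold change of -0.05. B9d2, a B9 domain protein of the Meckel syndrome complex, had 13.2, 13.8 and 13.8 CPM in SnoN cKO and 11.8, 11.96 and 11.6 CPM in wild type. The libraries of each genotype lay close together and apart from the other genotype, with a log2 fold change of 0.20 (SE 0.09, unadjusted p = 0.0463, edgeR adjusted p = 0.640). Its relative B9d1 overlapped between genotypes, with a log2 fold change of 0.09 (SE 0.08). Mks1, the third B9 domain protein of the complex, had 12.8, 12.1 and 12.7 CPM in SnoN cKO and 13.1, 13.3 and 10.4 CPM in wild type. Wild type 3 was below all other libraries of Mks1, and the log2 fold change of 0.03 (SE 0.11) was -0.08 without it.

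Tctn1, a tectonic that is needed for Hedgehog signalling, had the most negative estimate of the 39 genes. It had 13.8, 14.8 and 13.5 CPM in SnoN cKO and 17.1, 14.7 and 14.8 CPM in wild type. The difference came with a single high library, wild type 1: the log2 fold change was -0.15 (SE 0.10, unadjusted p = 0.169) with it and -0.07 without it. In GENCODE M21, 25.5% of the exon bases of Tctn1 also lie in exons of opposite-strand genes, so some of its reads may belong to those. Tctn2 and Tctn3 had log2 fold changes of -0.08 and -0.06, each with an SE of 0.09.

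Cep290 anchors the membrane to the microtubules at the ciliary base. It had 27.4, 24.9 and 31.1 CPM in SnoN cKO and 31.5, 30.8 and 27.98 CPM in wild type. The genotypes overlapped, with SnoN cKO 2 lowest, and the log2 fold change was -0.11 (SE 0.09). Rpgrip1l, a scaffold of the transition zone, had 33.7, 32.8 and 32.9 CPM in SnoN cKO and 31.8, 35.9 and 33.7 CPM in wild type. All SnoN cKO libraries lay inside the wild type range.

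Proteins of the ciliary membrane and of the zone just above the gate also overlapped between genotypes. Arl13b, a small GTPase widely used to stain cilia, had 23.2, 21.9 and 24.0 CPM in SnoN cKO and 25.4, 22.8 and 23.1 CPM in wild type, a log2 fold change of -0.05 (SE 0.08). Evc, which with Evc2 relays the signal of the Hedgehog transducer Smo, had 33.1, 39.3 and 35.7 CPM in SnoN cKO and 37.2, 36.5 and 36.6 CPM in wild type. Its wild type libraries lay close together and its SnoN cKO libraries fell on both sides of them. Evc2 had 17.2, 19.1 and 20.1 CPM in SnoN cKO and 16.3, 18.6 and 16.8 CPM in wild type, a log2 fold change of 0.13 (SE 0.10). The partners thus had estimates of opposite sign, -0.03 (SE 0.07) for Evc and 0.13 for Evc2, and both intervals held 0.

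**Figure D4:**
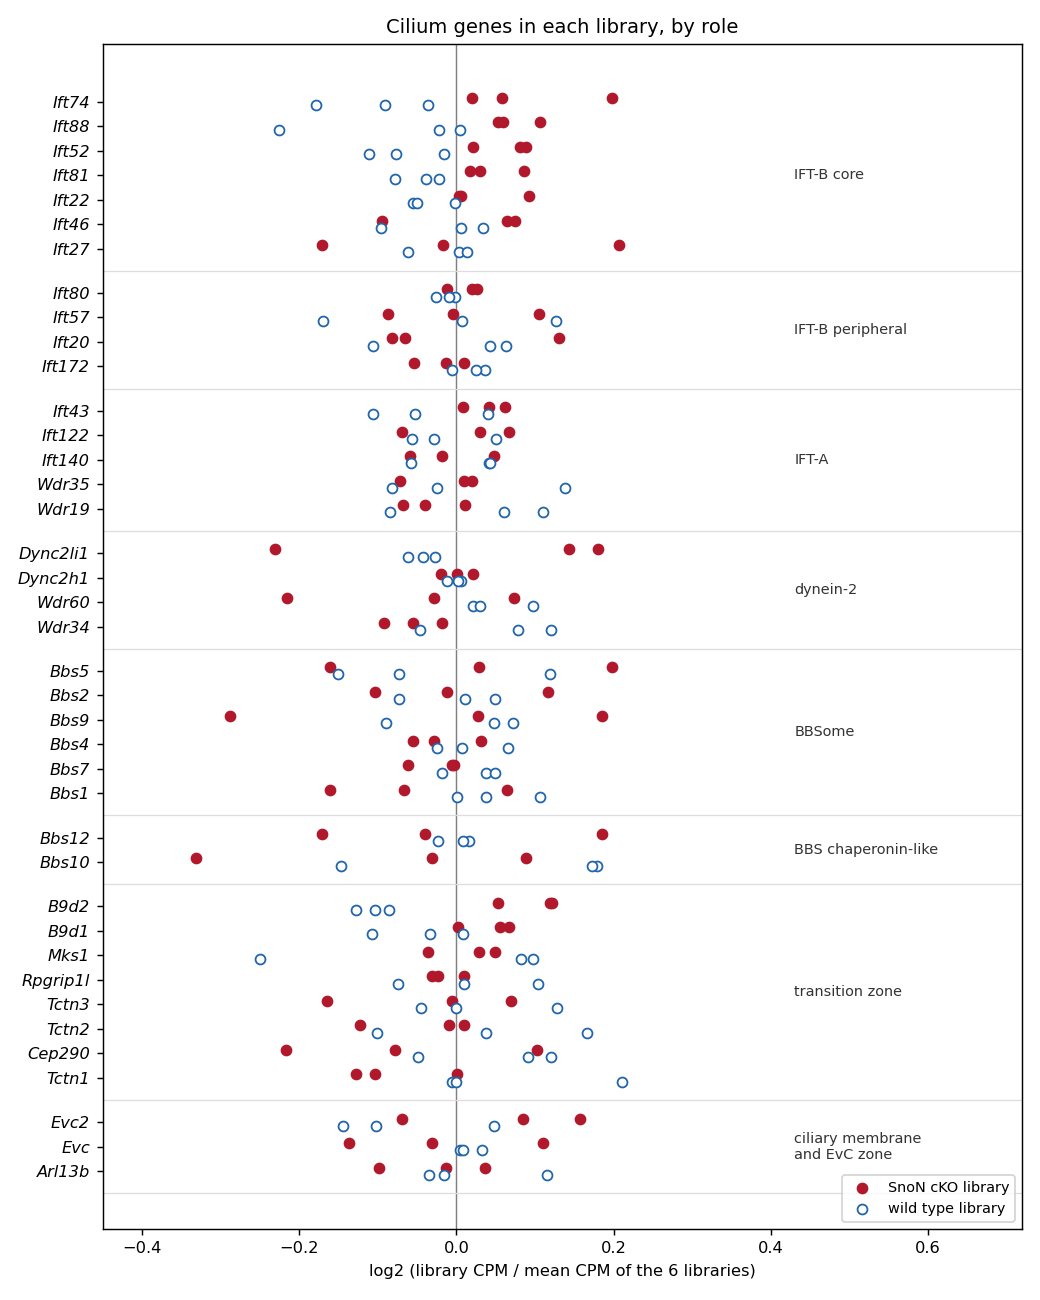
Level of each tested cilium gene in each library, as log2 of its CPM over its mean CPM in the 6 libraries (horizontal axis), grouped by role; filled points are SnoN cKO and open points wild type libraries. Ift74, Ift52 and B9d2 show separate clusters by genotype, Dync2h1 is packed around 0, and Bbs10 is spread most widely.

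Levels differed far more between the genes than between genotypes. Per kilobase of annotated exon (GENCODE M21), Ift20 was the highest at 23.8 ± 1.997 CPM per kb in SnoN cKO and 23.8 ± 1.496 in wild type (SD, n = 3 each). Bbs10 was the lowest of the tested genes at 1.44 ± 0.209 CPM per kb in SnoN cKO and 1.60 ± 0.198 in wild type. By role, the median over genes and libraries was 13.5 CPM per kb in peripheral and 8.86 in core IFT-B subunits, 7.44 in dynein-2, 7.14 in IFT-A and 4.91 in the BBSome. Transition zone genes (2.78) and the chaperonin-like genes (2.79) had the lowest medians, and the membrane and EvC genes stood at 4.60. The median of all genes tested was 6.45 CPM per kb, computed in the same way. Within the transition zone, B9d1 (10.8 ± 0.259 in SnoN cKO and 10.2 ± 0.410 in wild type) and B9d2 (9.34 ± 0.253 and 8.11 ± 0.118) stood above Tctn1 (1.69 ± 0.082 and 1.88 ± 0.164). Exon length counts every annotated exon, so a gene with long or rarely used exons appears low.

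**Figure D5:**
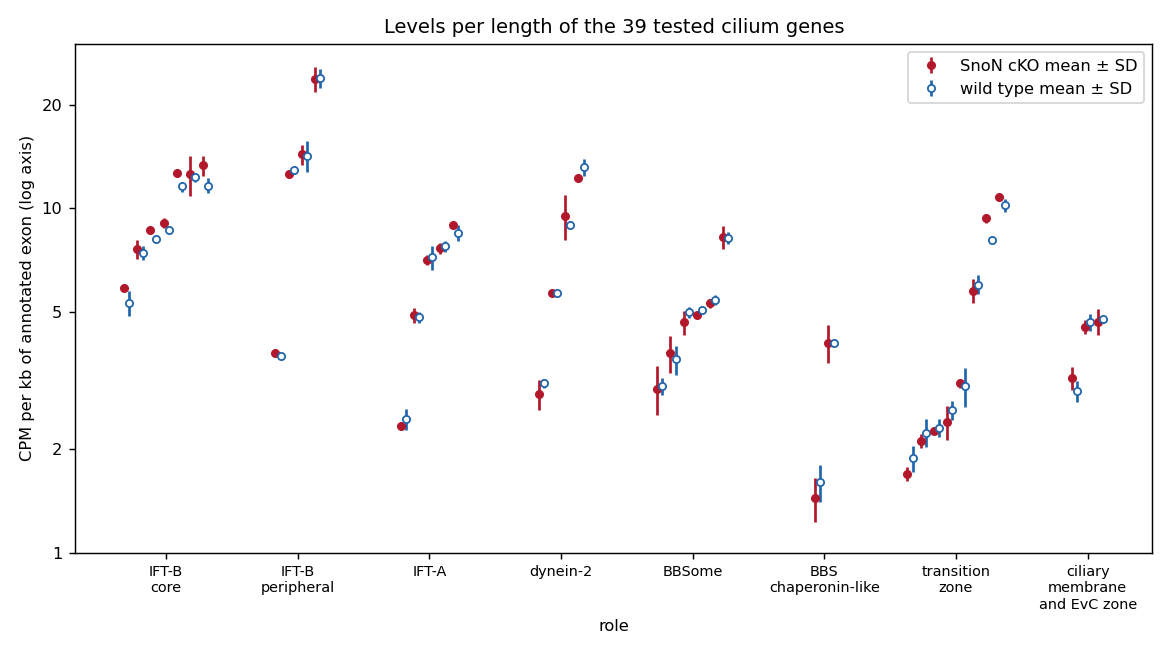
Level of each tested cilium gene in CPM per kilobase of annotated exon (vertical log axis), by role, as the mean ± SD of 3 libraries in SnoN cKO (filled) and wild type (open). The genotypes lie close together for most genes, but B9d2 was at 9.34 in SnoN cKO and 8.11 in wild type. Genes span from 1.44 for Bbs10 to 23.8 for Ift20.

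The 40 genes are scattered over 16 chromosomes, with 8 on chromosome 5. In GENCODE M21, 38 of them are protein-coding, and 9 of these (23.7%) start within 1000 bp of a protein-coding gene that reads the other way, against 1491 of 21951 (6.79%) of all protein-coding genes. The neighbours were Tmtc3 for Cep290, Dcun1d5 for Dync2h1, Mbd4 for Ift122, Cramp1l for Ift140, Tnfaip1 for Ift20, Arcn1 for Ift46, Smc4 for Ift80, Fto for Rpgrip1l and Entpd1 for Tctn3. None of the 6 genes with separate genotypes had such a neighbour. Exons of 7 of the 40 overlapped an opposite-strand gene.

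Further cilium genes outside the symbol pattern are described by counts. Of all genes tested, 49.0% had a positive log2 fold change and 7.68% an unadjusted p under 0.05 in edgeR. The genotypes were separated with SnoN cKO higher in 6.95% and lower in 6.73% of them. Of 18 tested other IFT and motor subunits, 5 had positive and 13 negative log2 fold changes (median -0.04). None had an unadjusted p under 0.05, and the genotypes were separated in 0 with SnoN cKO higher and in 1, Cluap1, with SnoN cKO lower. The further BBSome list holds subunits and associated genes: Ttc8, Arl6, Mkks, Bbip1, Lztfl1, Trim32, Rab3ip, Rab8a, Rab11a and Rab23. These 10 divided into 5 and 5 (median 0.00), again with none under 0.05. Only Rab23 had separated genotypes, with SnoN cKO lower (1 of 10). Among 20 other transition zone genes 13 were positive and 7 negative (median 0.01). The genotypes were separated in 1 of them with SnoN cKO higher and in 0 with SnoN cKO lower. Of these 20 only Ahi1, a Joubert syndrome gene, had a p under 0.05. It was at 121 ± 10.5 CPM in SnoN cKO and 143 ± 14.2 CPM in wild type (SD, n = 3 each), a log2 fold change of -0.23 (SE 0.08, unadjusted p = 0.0166 in edgeR), with overlapping genotypes.

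The Hedgehog components that work in the cilium divided into 10 positive and 10 negative (median 0.00). Cdon, a co-receptor for Sonic hedgehog, was the one of these 20 with a p under 0.05, at 20.3 ± 3.72 CPM in SnoN cKO and 25.8 ± 1.99 CPM in wild type (SD, n = 3 each). Its log2 fold change was -0.35 (SE 0.13, unadjusted p = 0.0205 in edgeR), and all SnoN cKO libraries were below all wild type ones. Basal body and assembly genes, a list that includes Ift20, had 18 positive and 8 negative (median 0.01). Of these 26, Stil, needed for centriole duplication, differed by 0.16 (SE 0.07) and Cep97, a cap of the mother centriole, by -0.15 (SE 0.06), both with an unadjusted p under 0.05. Of 10 disassembly genes, 6 were positive (median 0.07), and Aurka, the mitotic kinase that starts cilium resorption, differed by 0.16 (SE 0.06), the only p under 0.05 of the 10. The genotypes were separated with SnoN cKO higher in 1 of 20 Hedgehog, 1 of 26 assembly and 3 of 10 disassembly genes. These are 5%, 3.85% and 30%, against 6.95% of all genes tested. The 3 disassembly genes were Aurka, Nek2 and Tchp. The reverse order held in 2, 2 and 0 genes of the same lists (10%, 7.69% and 0%), against 6.73% of all genes. No gene of these 6 lists passed the adjusted threshold.

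Markers of the cell types in the dissection are given beside the cilium genes. Of all genes tested, 49.0% had a positive log2 fold change and 7.68% an unadjusted p under 0.05 in edgeR. Of 32 tested ependyma markers 7 were positive and 25 negative (median -0.14), with summed levels of 145 to 204 CPM in SnoN cKO and 170 to 239 CPM in wild type. Spag6, at 0 in 3 libraries, and Sntn had too few counts to test. The defining factor Foxj1 had 30.9, 15.9 and 26.3 CPM in SnoN cKO and 35.1, 31.0 and 21.8 CPM in wild type. Zmynd10, a dynein arm assembly factor, was the only ependyma marker with an unadjusted p under 0.05, at -0.47 (SE 0.21). Choroid plexus markers had 0 of 14 positive, and summed to 185 to 4018 CPM in SnoN cKO and 2167 to 3902 CPM in wild type. Granule precursor and proliferation markers had 15 of 17 positive (median 0.10, summed 5205 to 5835 CPM in SnoN cKO and 4951 to 5430 CPM in wild type). Of these 17, which include 4 genes of the Hedgehog list, 5 (29.4%) had an unadjusted p under 0.05 in edgeR, all higher in SnoN cKO. The share of all genes tested that were called higher was 3.21%. The 4 with the smallest p, Mcm2, Sfrp1, Cdc20 and Pcna, had log2 differences of 0.19, 0.23, 0.14 and 0.16. The part of granule precursors in the IFT-B core levels was not tested.

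Among the other marker lists, those of postmitotic granule neurons (9 of 13 positive, median 0.02), Purkinje cells (11 of 12, 0.07), astrocytes and Bergmann glia (7 of 12, 0.09), endothelium and pericytes (6 of 10, 0.04) and microglia (9 of 10, 0.06) had positive medians. Oligodendrocyte lineage (3 of 12 positive, median -0.08), brainstem and spinal cord (0 of 8, -1.12) and meninges (0 of 10, -0.12) had negative ones. In edgeR, 3 of 8 brainstem and spinal cord markers (37.5%) had an unadjusted p under 0.05, all lower in SnoN cKO. So had 3 of 12 oligodendrocyte (25%) and 2 of 10 meninges markers (20%), all lower, against 4.47% of all genes called lower. The count was 2 of 13 (15.4%, 1 higher) for postmitotic granule neurons and 2 of 12 (16.7%, 2 higher) for Purkinje cells. For endothelium and pericytes it was 3 of 10 (30%, 2 higher), and for microglia 2 of 10 (20%, 2 higher). Among the astrocyte and Bergmann glia markers 7 of 12 (58.3%) had an unadjusted p under 0.05 in edgeR, against 7.68% of all genes tested. Of the 7, 5 were higher and 2 lower in SnoN cKO, where 3.21% and 4.47% of all genes were called. No marker of any list passed the adjusted threshold in edgeR.

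The values rested on few animals, and the 3 cilium genes with an unadjusted p under 0.05 were not the same under every choice. Their number was 0 without SnoN cKO 3, 1 without wild type 1 and 1 without wild type 2. Leaving out SnoN cKO 1 and 2, whose sex labels did not match, leaves SnoN cKO 3 as the only library of its genotype, and the fit then assumes that it varies like wild type. The 6 separated genes were at 0.13 to 0.30 in that fit, and SnoN cKO 3 is the highest library in 4 of them. All 6 were picked with SnoN cKO 3 above every wild type library, so their sign in that fit was set by the choice. An effect of genotype that differed by labelled sex was found in 0 of 39 genes, with the lowest adjusted p at 0.999 in edgeR and 0 genes with an unadjusted p under 0.05, but each genotype has 1 library labelled female and the label of the SnoN cKO one did not match its genes, so this says nothing about stability.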

How the data were processed

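Libraries were made with the NEBNext Ultra RNA kit, which does not record strand, and sequenced single-end, per the labels. What the authors deposited is a table of raw counts of reads for each gene. The tools named in the submitters' processing notes are featureCounts 1.4.5, Subread and STAR 2.0.4b, and the build is mm9. The annotation is not given in the sources used here.

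Only 97 of 40254 Ensembl identifiers in the table fit their symbol. Counts followed the symbols in a check of 9 genes with known expression, so genes were read by symbol and no identifier is printed. Of the 41228 entries, 140 repeats of a symbol with identical counts were kept once.

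Genes were filtered with filterByExpr (minimum count 10), which left 15457, scaled by TMM and tested by edgeR 4.0.16 (R 4.3.3, quasi-likelihood, two-sided, no covariates, Benjamini-Hochberg over all genes tested). CPM uses TMM-scaled totals. The common biological coefficient of variation was 9.71%, and totals were 12605870 to 17757711 counts. Alternatives used DESeq2 1.42.0, limma 3.58.1, other scalings and filters, labelled sex, the replicate block and left-out libraries. The test was also run on simulated counts. The differences planted there were larger than those of the cilium genes, so that run does not bear on differences of their size.

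The cilium genes and the 17 further lists were chosen with earlier results of these data known. Values in every library are given for genes with an unadjusted p under 0.05 or separate genotypes and for 14 genes fixed by role, and for Ift27, chosen after its values were seen. Of other lists, genes with an unadjusted p under 0.05 are named (up to 4 per list), and some others besides. For most marker lists counts are given alone. Barhl1 was named for its levels after its values were seen.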

Additional observations from a re-analysis of the deposited data

How the results depend on the processing

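No cilium gene passed the adjusted threshold under any alternative run. The number of the 39 genes with an unadjusted p under 0.05, 3 in the fit described, was 1 with library totals alone, 1 with the DESeq2 Wald test and 1 without SnoN cKO 2 and wild type 2. It was also 1 without SnoN cKO 1 and 2, a fit with a single SnoN cKO library that is assumed to vary like wild type, and between 0 and 2 when 1 library was left out. These last sets, which leave out a pair of libraries, were chosen after seeing the data. With the replicate block the number was 1. The block pairs samples only by number: same-numbered samples had correlations of -0.04, -0.32 and -0.18, and the highest correlation, 0.39, joined SnoN cKO 3 and wild type 2. Over all genes the number past the adjusted threshold, 0 in the fit described, was 39 without a filter, 6 with DESeq2, 1 with labelled sex as a covariate and 0 with limma-voom. It was 7 in the fit with a single SnoN cKO library. The median log2 fold change of the 39 genes stayed between -0.02 and 0.02. The 6 separated genes were positive under every alternative run. They were picked because every SnoN cKO library lay above every wild type library, so leaving out libraries could hardly turn their sign. Their sign therefore says nothing about stability. Changes of sign were followed only for 19 of the 39 genes, the 6 separated ones and others fixed by role. Those of the 19 that changed sign had estimates between -0.11 and 0.03 in the fit described. Dync2h1 was at -0.017 with library totals, at -0.012 without SnoN cKO 2 and wild type 2, and at -0.020 without SnoN cKO 1 and 2. Without SnoN cKO 2 and wild type 2, Rpgrip1l was at 0.026, Mks1 at 0.114 and Evc at -0.098. Without SnoN cKO 1 and 2, Bbs1 was at 0.015, Bbs4 at 0.013, Cep290 at 0.046 and Arl13b at 0.013. Leaving out 1 library gave ranges of -0.071 to 0.0015 in Arl13b, -0.0084 to 0.020 in Dync2h1, -0.094 to 0.026 in Evc, -0.048 to 0.0055 in Ift140, -0.076 to 0.093 in Mks1 and -0.073 to 0.021 in Rpgrip1l. The cause of these changes was not tested.

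With 3 animals per genotype and a median SE of 0.07, small differences in 1 gene were not detectable after adjustment over 15457 genes. Log2 fold changes of 0.20 in Ift74 and B9d2 and of -0.22 in Skil also did not pass the adjusted threshold. Depth limited the rarest genes most: Ift88os had 5 to 19 counts per library. Gm42418, a gene that overlaps ribosomal RNA, took 3.75% of SnoN cKO 3 and 0.692% of wild type 2, and its part in the cilium gene levels was not tested.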
